A study of Mus musculus with 18 samples.

Results

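Transcript levels of 8 genes of cell death routes other than ferroptosis were followed in CD8 T cells across 3 diets. The genes were Casp1, Casp4, Casp6, Casp8, Pycard, Gsdmd, Ripk1 and Ripk3. They were chosen by symbol, as the Ensembl gene IDs that carry these symbols in GENCODE M21 (build GRCm38), and each symbol matched 1 ID, giving 8 of the 56748 gene IDs in the count files. The libraries were poly-A RNA-seq of freshly isolated splenic CD8 T cells, sorted from wild-type (WT) mice, 18 in all and 6 per diet. SW mice were switched: they ate high fat diet for the first 6 weeks and normal diet for the last 6. HFD mice ate high fat diet throughout the 12 weeks, and ND mice ate normal diet throughout the same 12 weeks. All 3 diets shared the WT genotype, and the mice's age is not in the labels. Nothing in the labels ties the 6 libraries of a diet to 6 different mice, so p-values measure the spread between these samples, some of which may be technical.

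Pyroptosis is a lytic death that begins when a sensor of the inflammasome gathers the adaptor ASC, the product of Pycard, into a filament that activates the protease encoded by Casp1. That protease matures the cytokines interleukin-1 beta and interleukin-18 and cuts gasdermin D, the product of Gsdmd, whose freed part forms pores in the plasma membrane; the protease encoded by Casp4 senses bacterial lipopolysaccharide inside the cell and cuts gasdermin D directly. Casp8 encodes the initiator protease of death receptor apoptosis and Casp6 a protease classed with the executioners. Ripk1 and Ripk3 encode kinases that bind each other through a shared motif, the RHIM, to start necroptosis, and the protease encoded by Casp8 holds that route in check by cutting them. In T cells that balance is known from mice, where loss of Casp8 impairs T cell survival and removal of Ripk3 restores it.

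The sequences that define the enzymes of both routes are shown first, because the members fall into a protease family and a kinase pair. Each is a stretch of coding sequence read 5′ to 3′ from the GENCODE M21 transcripts. For the 4 caspases the capitals mark the 5 codons around the active site, which read glutamine, alanine, the catalytic cysteine, arginine or glutamine, and glycine. The marked codons are 282 to 286 of 402 in Casp1, 252 to 256 of 373 in Casp4, 144 to 148 of 276 in Casp6 and 380 to 384 of 500 in Casp8. The whole printed windows, flanks included, lie at chr9:5303744-5304200 (Casp1), chr9:5324928-5327189 (Casp4), chr3:129910681-129912144 (Casp6) and chr1:58844598-58844642 (Casp8) on the plus strand, and the windows of Casp1, Casp4 and Casp6 run across an intron that is left out of the letters.
Casp1: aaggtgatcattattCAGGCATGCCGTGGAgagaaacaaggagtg
Casp4: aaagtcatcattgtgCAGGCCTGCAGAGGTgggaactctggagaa
Casp6: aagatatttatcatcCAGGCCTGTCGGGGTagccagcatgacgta
Casp8: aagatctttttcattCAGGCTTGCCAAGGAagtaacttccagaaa

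Aligned without gaps, the windows of Casp1 and Casp4 shared 30 of 45 bases, and the other 5 pairs of caspases shared 23 to 27. Casp1 and Casp4 are also neighbours on chromosome 9 of GRCm38, at chr9:5298517-5307265 and chr9:5308828-5336783 on the same strand. For Ripk1 and Ripk3 the capitals mark the 4 codons at the core of the RHIM, codons 528 to 531 of 656 in Ripk1 and codons 448 to 451 of 486 in Ripk3; both read a branched residue, glutamine, isoleucine and glycine. The whole printed windows lie at chr13:34030063-34030104 on the plus strand (Ripk1) and chr14:55785290-55785331 on the minus strand (Ripk3).
Ripk1: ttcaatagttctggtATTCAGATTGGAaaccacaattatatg
Ripk3: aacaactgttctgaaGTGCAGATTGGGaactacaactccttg

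The other genes lie at chr3:129901425-129914103 (Casp6), chr1:58795374-58847503 (Casp8), chr7:127989708-127993867 (Pycard), chr15:75862327-75867408 (Gsdmd), chr13:34002363-34037147 (Ripk1) and chr14:55784995-55788865 (Ripk3). Whether the counts kept strand is not stated, so transcripts from the opposite strand can add to a gene's count. This touches Ripk1, which shares 241 exonic bases, 2.89% of its exonic length, with Serpinb6a on the other strand, and Pycard, which shares 485 exonic bases, 12.8%, with Gm45205. Gm45205 had a mean count of 1.28 per library, and Serpinb6a 160.

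Library totals ran from 11947339 to 16398340 counts, and 13690 genes passed the filter on low counts, all 8 members among them. Cd8a, which encodes a chain of the CD8 coreceptor that defines the sorted cells, averaged 1519, 1482 and 1494 CPM (counts scaled to library size) in SW, HFD and ND libraries. Library HFD 4 stood apart from the other 17. It lay at -55.0 on the first principal component of log2 CPM (13.4% of the variance), against -6.31 to 8.83 for the others, and it held 17570 detected genes against 18963 to 20155. On the second component (12.0% of the variance) replicates 1 and 2 of every diet lay between -31.1 and -5.58, and replicates 3 to 6 between -4.59 and 19.1. Results are therefore also given without HFD 4 and within these sets of replicates where they rest on them. Markers of other cells were also present, and their values stand beside the results they move with.

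The members differed in level far more between genes than between diets. On the scale of FPKM (fragments scaled to transcript length and library size), which allows levels of different genes to be compared, Casp8 and Gsdmd were highest. Casp8 averaged 52.2 ± 4.11 FPKM in SW, 50.4 ± 1.59 in HFD and 53.1 ± 1.56 in ND libraries (SD, n = 6 each). Gsdmd averaged 44.9 ± 3.28 FPKM in SW, 45.1 ± 5.32 in HFD and 43.1 ± 3.90 in ND libraries. Averaged over all 18 libraries they lay at percentiles 93.2 and 91.7 of the genes tested. The kinase Ripk3, at percentile 79.9, averaged 18.6 FPKM in SW, 20.5 in HFD and 20.2 in ND, above its partner Ripk1, at percentile 59.97, with 8.38, 9.08 and 8.56 FPKM in the same order of diets. Between the kinases lay the adaptor Pycard, at percentile 69.3, with 12.6 FPKM in SW, 11.8 in HFD and 12.8 in ND.

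The inflammatory proteases were scarce. Casp1 averaged 3.20 ± 0.429 FPKM in SW, 3.94 ± 0.939 in HFD and 2.65 ± 0.457 in ND libraries, at percentile 37.5. Casp4 was the lowest member, at 0.941 ± 0.139 FPKM in SW, 0.932 ± 0.321 in HFD and 0.661 ± 0.229 in ND, at percentile 16.3. In SW and ND the order ran Casp8, Gsdmd, Ripk3, Pycard, Ripk1, Casp6, Casp1 and Casp4. In HFD, Casp1 stood above Casp6, which averaged 3.79 FPKM in SW, 3.68 in HFD and 3.96 in ND. Neighbours in the order overlapped in range only for Casp8 and Gsdmd in SW and in HFD, and for Casp6 and Casp1 in SW and in HFD; in ND no neighbours overlapped.

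**Figure D1:**
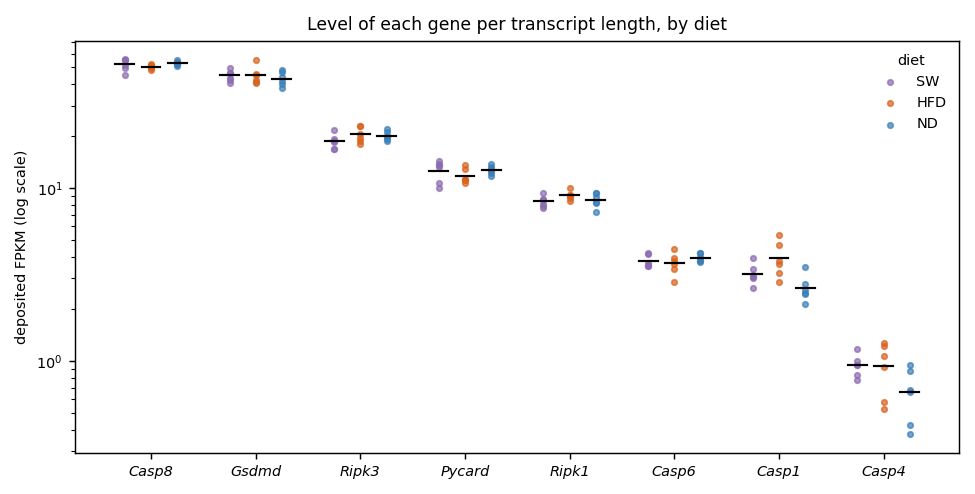
Deposited FPKM (log axis) of the 8 genes in each library, ordered by level, with SW left, HFD in the middle and ND right for each gene; points are libraries and bars are means of 6. Casp8 and Gsdmd lie near 50 FPKM, and Casp4 lies near or below 1.

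The spread between libraries differed among members as well. Over all 18 libraries the highest CPM of Casp4 was 3.34 times the lowest and that of Casp1 2.51 times, while the ratio was 1.55 for Casp6, 1.45 for Gsdmd, 1.42 for Pycard, 1.38 for Ripk1, 1.37 for Ripk3 and 1.23 for Casp8. The biological coefficient of variation, the spread between libraries of a diet beyond counting error, was 0.250 for Casp4 and 0.159 for Casp1. It lay between 0.0658 (Casp8) and 0.0985 (Casp6) for the other members, against a median of 0.112 over the genes tested. Casp4 had 17 to 69 counts per library and Casp1 76 to 255, whereas Casp8 had 1628 to 2546, so the scarcer genes also carry more counting error.

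Diet comparisons used counts in edgeR's quasi-likelihood test, with a call at a Benjamini-Hochberg adjusted p under 0.05 over all 13690 genes. The members were chosen with earlier results of these data known, so their counts beside the shares of all genes are a description. In HFD against ND, which asks what 12 weeks of high fat diet had changed, 1.62% of the genes tested were called, and 1 of the 8 members, Casp1, was called. In SW against ND, which sets the switched diet against normal diet throughout, 0.0146% of the genes were called. In SW against HFD, which sets the switched diet against continued high fat diet, 0.124% were called, and no member was called in either. No library was taken at the switch, so whether a change had arisen by then and was later reversed was not tested. SW and HFD also differ in their weeks of high fat diet, 6 against 12. A test for any difference among the diets called 0.898% of the genes and no member, with Casp1 at adjusted p = 0.0965. At an unadjusted p under 0.05 the members numbered 1 in HFD against ND (all genes 14.9%), 0 in SW against ND (all genes 6.81%), 1 in SW against HFD (all genes 11.1%) and 1 for any diet (all genes 13.3%), and each was Casp1. DESeq2 also called 0 members in SW against ND and in SW against HFD, and 1 for any diet. The median log2 fold change of the members was 0.04, -0.02 and 0.01 in HFD against ND, SW against ND and SW against HFD, beside 0.01, 0.00 and -0.00 over all genes tested. HFD against ND and SW against ND share the ND libraries, so their values are given side by side and not set against each other as separate evidence.

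Casp1, which encodes the protease that inflammasomes activate, was higher in HFD than in ND libraries. Its lowest, median and highest levels were 7.996, 9.42 and 11.9 CPM in SW, 8.74, 11.3 and 16.2 CPM in HFD, and 6.48, 7.70 and 10.5 CPM in ND. All 6 HFD libraries lay above the ND mean and 4 lay above every ND library, while the other 2 lay within the ND range. The means were 11.9 ± 2.81 CPM in HFD and 8.06 ± 1.38 CPM in ND (SD, n = 6 each), a log2 fold change of 0.56 ± 0.14 (SE; 95% interval 0.27 to 0.85), or 1.48-fold, with an adjusted p of 0.0406 in edgeR's quasi-likelihood test. In bulk libraries such as these, more cells of a type and more RNA per cell cannot be told apart.

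SW libraries lay between the other diets for Casp1, with a mean of 9.69 ± 1.29 CPM. Against ND, 5 of 6 SW libraries lay above the ND mean, and the log2 fold change was 0.27 ± 0.14 (95% interval -0.03 to 0.56; edgeR adjusted p = 0.787). Against HFD, all 6 SW libraries lay below the HFD mean, and the log2 fold change was -0.30 ± 0.14 (95% interval -0.58 to -0.01; unadjusted p = 0.0452, adjusted p = 0.439 in edgeR). SW was thus not called against ND or against HFD at the adjusted p. The 95% interval of SW against ND held 0, while that of SW against HFD just left 0 out.

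**Figure D2:**
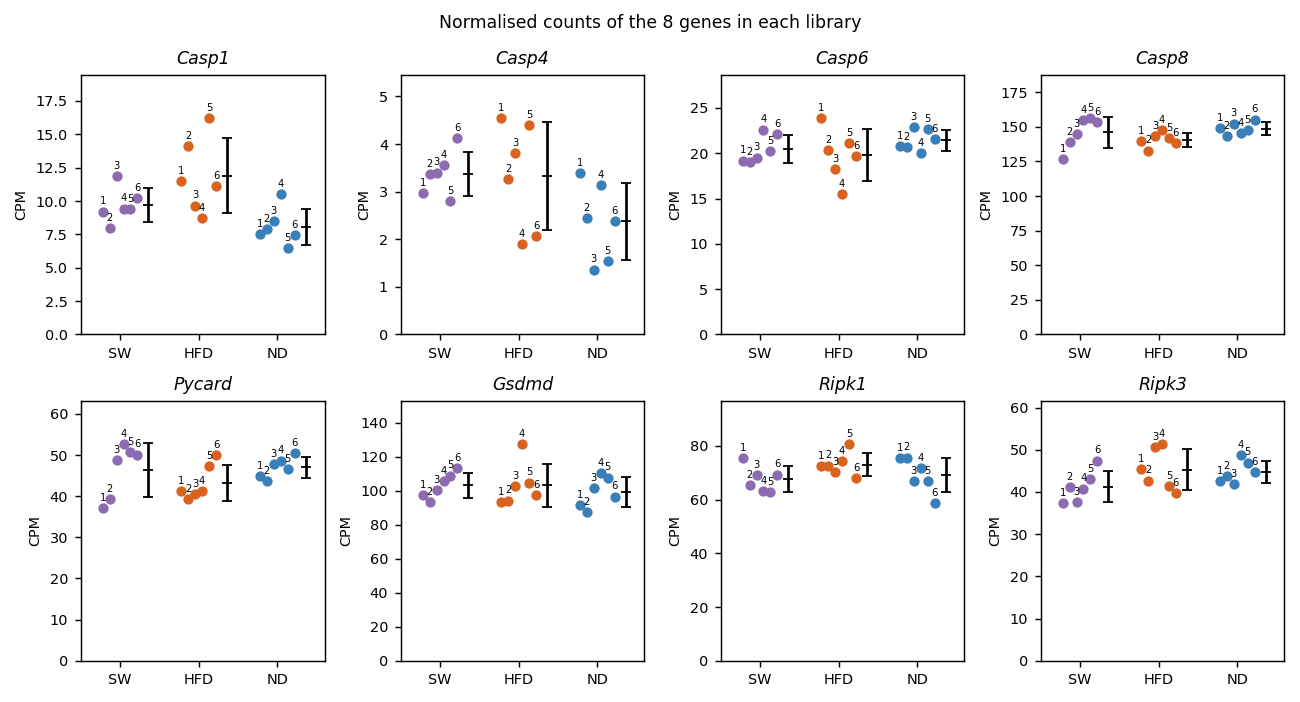
Normalised counts (CPM) of each of the 8 genes in every library, one panel per gene, with SW left, HFD in the middle and ND right; numbered points are libraries (replicate number) and bars are means ± SD of 6. Casp1 reaches 16.2 CPM in HFD against a highest ND value of 10.5 CPM, and in every panel the diets overlap.

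The Casp1 call was close to the threshold and depended on the libraries and model used. Left out in turn, single libraries gave log2 fold changes of 0.45 to 0.65 with edgeR adjusted p-values of 0.0237 to 0.110, and the call held in 9 of 18 such fits; it was lost without ND 1, ND 2, ND 3, ND 5, ND 6, SW 5, HFD 2, HFD 5 or HFD 6. Without HFD 4, the library that stood apart, the value was 0.64 with adjusted p = 0.0237. Within replicates 3 to 6 it was 0.47 (adjusted p = 0.198) and within replicates 1 and 2 it was 0.73 (adjusted p = 0.368), both uncalled by edgeR. DESeq2 gave 0.56 with adjusted p = 0.0112, and limma on log2(FPKM + 0.1) gave 0.54 with adjusted p = 0.0636.

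Markers of other spleen cells were read in the same comparison. The summed level of 12 myeloid markers ran from 29.4 to 51.7 CPM in SW, 36.5 to 62.1 CPM in HFD and 24.98 to 43.9 CPM in ND. Of the 10 that were tested in HFD against ND, none was called by edgeR, 5 had an unadjusted p under 0.05, 8 had a fold change above 0, and their median log2 fold change was 0.75. Lyz2, a lysozyme of macrophages and neutrophils, averaged 6.98 CPM in SW, 10.04 in HFD and 5.72 in ND, while Cd14 was at 0 in 8 of the 18 libraries and Adgre1 in 2. With the log2 of the summed myeloid level as a covariate, the Casp1 value was 0.41 ± 0.17 with an edgeR adjusted p of 0.280. The 6 dendritic cell markers summed to 56.7 to 94.4 CPM in SW, 74.0 to 148 CPM in HFD and 52.9 to 124 CPM in ND, with none at 0 in any library, none called and 2 of 6 with an unadjusted p under 0.05 in HFD against ND. The 9 B cell markers summed to 507 to 613 CPM in SW, 532 to 681 CPM in HFD and 483 to 537 CPM in ND; of 5 tested, Ighm, which makes up most of that sum, was called higher in HFD against ND. The myeloid covariate itself differed by diet, with a mean sum of 45.9 CPM in HFD and 33.5 CPM in ND. The fit with it therefore cannot fully separate diet from myeloid level. What part these cells play in the Casp1 result was not tested. The 7 erythroid markers summed to 29.7 to 86.1 CPM in SW, 11.5 to 336 CPM in HFD and 14.3 to 40.1 CPM in ND, and all 6 that were tested had an unadjusted p under 0.05 in HFD against ND with none called. The highest sum was that of HFD 4, the library that stood apart, and the next was 160 CPM in HFD 1. HFD 4 had the lowest Casp1 of the HFD libraries, 8.74 CPM. HFD 5 had the lowest erythroid sum and the highest Casp1, 16.2 CPM. Libraries of the other diets went the other way. SW 3 had the highest SW values of both, an erythroid sum of 86.1 CPM and Casp1 at 11.9 CPM. ND 6 had the lowest ND erythroid sum, 14.3 CPM, with Casp1 at 7.44 CPM, below the ND mean of 8.06 CPM. The 4 natural killer cell markers summed to 24.6 to 35.0 CPM in SW, 25.02 to 41.9 CPM in HFD and 32.6 to 37.3 CPM in ND, and of 3 tested none was called, 1 had a fold change above 0 and the median was -0.14. With the log2 sum of the erythroid markers as a covariate, Casp1 was at 0.71 with adjusted p = 0.0161 in edgeR. That sum also differed by diet, with a mean of 119 CPM in HFD and 31.4 CPM in ND.

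**Figure D3:**
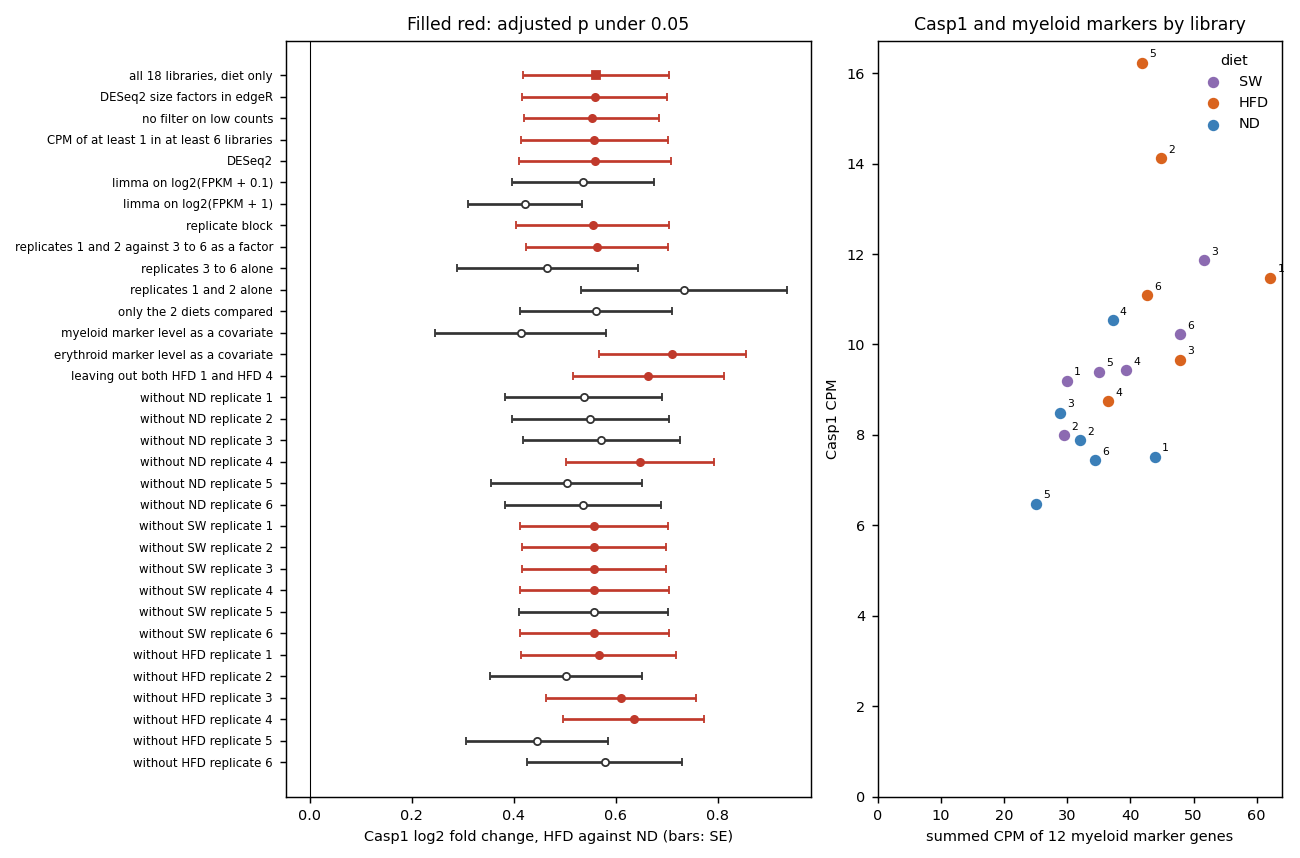
Log2 fold change of Casp1 in HFD against ND under each setting, with SE bars and filled points where the adjusted p was under 0.05 (left), and Casp1 CPM against the summed CPM of 12 myeloid markers in each library, numbered by replicate (right). All fold changes lie above 0, and the call is present in some settings and absent in others, among them the fit with the myeloid covariate at 0.41; in the right panel the HFD libraries reach both the highest Casp1, 16.2 CPM, and the highest marker sum, 62.1 CPM, in different libraries.

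The Casp1 promoter is printed because Casp1 was the member called. It is the 250 bases before the annotated start, chr9:5298267-5298516 on the plus strand, from RefSeq on GRCm38.p6, with a GC content of 49.2%.
Casp1 promoter: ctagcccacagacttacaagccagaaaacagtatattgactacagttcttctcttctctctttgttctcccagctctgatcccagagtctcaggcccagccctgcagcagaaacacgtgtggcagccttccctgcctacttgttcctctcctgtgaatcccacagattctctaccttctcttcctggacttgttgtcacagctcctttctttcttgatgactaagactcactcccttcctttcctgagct

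These letters hold no match on either strand to TTCNNNGAA, the pattern of STAT sites; of the 32851 promoters in the same table, 7.02% hold one. Promoters were listed for 7 of the 8 members, and Gsdmd had no entry.

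Casp4, which encodes the protease long called caspase-11 in mouse, did not pass the test in any comparison. Its lowest, median and highest levels were 2.80, 3.39 and 4.13 CPM in SW, 1.89, 3.53 and 4.55 CPM in HFD, and 1.36, 2.41 and 3.38 CPM in ND. The ranges overlapped, although 3 of 6 SW and 3 of 6 HFD libraries lay above every ND library. The log2 fold change was 0.47 ± 0.24 in HFD against ND (95% interval -0.02 to 0.97; edgeR adjusted p = 0.365) and 0.49 ± 0.24 in SW against ND (95% interval -0.00 to 0.99; adjusted p = 0.733). With the myeloid covariate the HFD against ND value was 0.05, and within replicates 1 and 2 alone the SW against ND value was 0.12; with 1 added to FPKM, limma gave 0.21 and 0.23 for these comparisons. All SW libraries lay within the HFD range, while HFD libraries also lay above and below the SW range (SD 1.14 CPM in HFD against 0.469 in SW). SW and HFD differed by 0.02 ± 0.23 (95% interval -0.46 to 0.50). At 17 to 69 counts a library, intervals of this width were the widest of the 8 genes.

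Pycard and Gsdmd, upstream and downstream of the Casp1 protease, did not pass the test in any comparison. Pycard had lowest, median and highest levels of 37.1, 49.4 and 52.6 CPM in SW, 39.2, 41.2 and 49.9 CPM in HFD, and 43.6, 47.2 and 50.4 CPM in ND. Its log2 fold change was -0.12 ± 0.08 in HFD against ND (95% interval -0.28 to 0.05; edgeR adjusted p = 0.517), with 4 of 6 HFD libraries below every ND library. It was -0.02 ± 0.08 in SW against ND (-0.18 to 0.15) and 0.10 ± 0.08 in SW against HFD (-0.06 to 0.27). Gsdmd, the pore-forming substrate, had 93.4, 103 and 113 CPM in SW, 93.1, 100.04 and 127 CPM in HFD, and 87.6, 98.9 and 110 CPM in ND. Its log2 fold changes were 0.06 ± 0.07 in HFD against ND (95% interval -0.09 to 0.21), 0.06 ± 0.07 in SW against ND (-0.09 to 0.20) and -0.00 ± 0.07 in SW against HFD (-0.15 to 0.14). The highest Gsdmd value, 127 CPM, came from HFD 4.

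The sets of replicates, which lay apart on the second principal component, also lay apart for both genes, except for Pycard in HFD. Gsdmd lay at 93.4 to 97.6 CPM in replicates 1 and 2 of SW and at 100.2 to 113 CPM in replicates 3 to 6. In HFD the same sets lay at 93.1 to 94.2 CPM and 97.3 to 127 CPM, and in ND at 87.6 to 91.7 CPM and 96.5 to 110 CPM, so in each diet replicates 1 and 2 lay below all of the others. Pycard lay at 37.1 to 39.3 CPM in replicates 1 and 2 of SW against 48.7 to 52.6 CPM in replicates 3 to 6, and at 43.6 to 44.8 CPM against 46.5 to 50.4 CPM in ND. In HFD its sets overlapped, at 39.2 to 41.3 CPM and 40.5 to 49.9 CPM. Other members showed such gaps in 1 diet. In SW, replicates 1 and 2 also lay below the others for Casp1, Casp6 and Casp8, with Casp8 at 127 to 139 CPM against 145 to 157 CPM. In ND, Ripk1 went the other way, at 75.4 to 75.6 CPM in replicates 1 and 2 against 58.6 to 71.9 CPM. What separates these sets is not in the labels, and the difference between them was not itself tested for these genes. The share of all genes with such a gap was not counted.

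The apoptotic proteases did not pass the test in any comparison. Casp8 had lowest, median and highest levels of 127, 149 and 157 CPM in SW, 133, 141 and 148 CPM in HFD, and 143, 148 and 155 CPM in ND. In HFD against ND its log2 fold change was -0.08 ± 0.05 (95% interval -0.18 to 0.02; edgeR adjusted p = 0.466), although 5 of 6 HFD libraries lay below every ND library. The difference was -0.03 ± 0.05 in SW against ND (-0.13 to 0.08) and 0.05 ± 0.05 in SW against HFD (-0.05 to 0.16). Casp6, the executioner-class member, had 19.0, 19.9 and 22.6 CPM in SW, 15.5, 20.0 and 23.9 CPM in HFD, and 20.0, 21.2 and 22.9 CPM in ND. Its log2 fold change was -0.12 ± 0.09 in HFD against ND (95% interval -0.29 to 0.06; edgeR adjusted p = 0.575), -0.07 ± 0.09 in SW against ND and 0.05 ± 0.09 in SW against HFD, and HFD libraries spread most, with an SD of 2.84 CPM against 1.54 in SW and 1.16 in ND.

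The kinases of necroptosis did not pass the test either. Ripk1 averaged 67.5 ± 4.83 CPM in SW, 73.0 ± 4.32 CPM in HFD and 69.2 ± 6.49 CPM in ND. Its log2 fold change was 0.08 ± 0.06 in HFD against ND (95% interval -0.05 to 0.21; edgeR adjusted p = 0.601), -0.04 ± 0.06 in SW against ND (-0.17 to 0.10) and -0.11 ± 0.06 in SW against HFD (-0.24 to 0.02; adjusted p = 0.505). Ripk3, the kinase that Ripk1 recruits, averaged 41.3 ± 3.73 CPM in SW, 45.2 ± 4.86 CPM in HFD and 44.8 ± 2.68 CPM in ND. Its log2 fold change was 0.02 ± 0.07 in HFD against ND (-0.13 to 0.16), -0.12 ± 0.07 in SW against ND (-0.26 to 0.03; adjusted p = 0.849) and -0.13 ± 0.07 in SW against HFD (-0.28 to 0.02; adjusted p = 0.494). In SW, 4 of 6 Ripk3 libraries lay below every ND library. Mlkl, which encodes the pore-forming substrate of the Ripk3 kinase and is named here for that role after its values were seen, was scarce at 0.624 CPM in SW, 1.04 in HFD and 0.783 in ND, and its adjusted p in HFD against ND was 0.644.

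**Figure D4:**
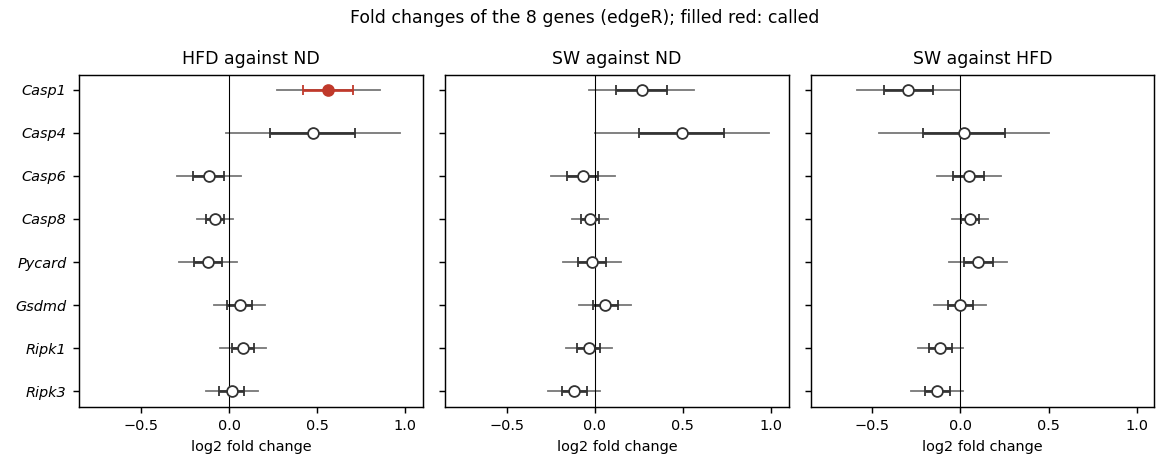
Log2 fold changes of the 8 genes in HFD against ND, SW against ND and SW against HFD from 1 edgeR fit over 18 libraries; thick bars are SE, thin bars 95% intervals, and the filled point is the called value, Casp1 at 0.56. Intervals of Casp4 are the widest, and those of Casp8 the narrowest.

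Genes whose pattern over the 18 libraries was most like each member were found by the root mean square distance between standardised log2 CPM, where 0 is the same pattern, among 8239 or 8240 protein-coding genes of at least 10 CPM. The median distance to those genes was between 1.35 and 1.41. The nearest gene was Chst11 for Casp1 (0.620), Tbc1d8 for Casp4 (0.565), Twistnb for Casp6 (0.683) and Plekhn1 for Casp8 (0.485). It was Naa20 for Pycard (0.452), Rfc2 for Gsdmd (0.433), Ppp4r3b for Ripk1 (0.550) and Polr1b for Ripk3 (0.619). No member was another member's nearest gene. Casp1 and Casp4 fell under the limit of 10 CPM and so were not candidates. With them counted as well, each member lay further from its nearest other member than from its nearest gene. The nearest pair within the family was Casp8 and Pycard, at 0.672, and Casp1 was nearest to Casp4, at 0.915. These distances share the libraries and so their depth and replicate sets, and are a description.

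The other genes of these routes were read from 7 lists with 74 genes, of which 73 were in the count files and 67 were tested. The lists were chosen with earlier results of these data known. Their shares beside those of all genes are thus a description, and enrichment was not tested. In HFD against ND, 1 was higher and 3 were lower by edgeR, beside 0.665% and 0.957% of all genes; 17 of the 67 had an unadjusted p under 0.05, beside 14.9% of all genes. None was called in SW against ND or SW against HFD, where 6 (6.81% of all genes) and 9 (11.1% of all genes) of the 67 had an unadjusted p under 0.05; DESeq2 called 0 in SW against ND and 2, Fasl and Tnfaip3, in SW against HFD. The median log2 fold changes of the 67 genes were 0.01, 0.00 and 0.01 in HFD against ND, SW against ND and SW against HFD. The lists of apoptotic caspases and their regulators (14 tested), necroptosis regulators (14), inflammasome sensors and regulators (8), pyroptosis effectors and substrates (5) and interferon-induced GTPases of the noncanonical route (9) held no gene called by edgeR in any of the 3 comparisons.

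The called gene that was higher was Fasl, which encodes the ligand of the death receptor Fas and is used by cytotoxic T cells. Its lowest, median and highest levels were 3.96, 5.67 and 8.53 CPM in SW, 6.59, 8.94 and 19.2 CPM in HFD, and 3.69, 5.72 and 7.47 CPM in ND. The log2 fold change in HFD against ND was 0.94 ± 0.24 (edgeR adjusted p = 0.0498), and the call held in 5 of 18 fits that left out a library, those without SW 2, SW 6, HFD 1, HFD 3 or HFD 5. In the 18 fits the value lay between 0.70 (without HFD 2) and 1.04, with edgeR adjusted p-values of 0.0205 to 0.116. The Fasl value in SW was 0.06 ± 0.25 against ND and -0.88 ± 0.24 against HFD (adjusted p = 0.163). The other 8 genes of the list of death receptors and adaptors were not called.

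The 3 lower genes were transcription factors of the interferon pathway, out of 8 listed. Irf1 encodes an interferon-induced activator that is known to drive caspase and guanylate-binding protein genes. It had 188, 238 and 267 CPM as lowest, median and highest in SW, 183, 214 and 232 CPM in HFD, and 253, 273 and 287 CPM in ND. No HFD library reached the lowest ND library, the log2 fold change was -0.37 ± 0.07 (edgeR adjusted p = 0.00561), and the call held in all 18 fits that left out a library. In SW against ND it was -0.21 ± 0.07 (adjusted p = 0.371), with 5 of 6 SW libraries below every ND library. Irf9, a part of the factor that type I interferon activates, averaged 138 CPM in SW, 129 in HFD and 153 in ND, and its log2 fold change in HFD against ND was -0.25 ± 0.05 (adjusted p = 0.0168). Irf7, which amplifies type I interferon genes, averaged 113 CPM in SW, 105 in HFD and 131 in ND, and its value was -0.32 ± 0.08 (adjusted p = 0.0381), with the call lost without ND 2, ND 3, ND 4, ND 5, ND 6, HFD 2, HFD 3, HFD 4 or HFD 6, at -0.33 to -0.26 and adjusted p-values of 0.0548 to 0.0855. The Irf9 call held in all 18 such fits. With the myeloid covariate the edgeR values were -0.45 for Irf1 (adjusted p = 0.00878), -0.26 for Irf9 (adjusted p = 0.0569), -0.36 for Irf7 (adjusted p = 0.0921) and 0.84 for Fasl (adjusted p = 0.214). With the erythroid covariate, Irf1 kept its call at -0.38 (edgeR adjusted p = 0.0202), and the calls were lost for Irf9 at -0.21 (adjusted p = 0.106), Irf7 at -0.24 (adjusted p = 0.232) and Fasl at 1.01 (adjusted p = 0.114). Within replicates 3 to 6 the values were -0.45 for Irf1 (adjusted p = 9.92e-05), -0.27 for Irf9 (adjusted p = 0.0234), -0.36 for Irf7 (adjusted p = 0.0229) and 0.78 for Fasl (adjusted p = 0.0892); within replicates 1 and 2 none of the 4 was called. Without HFD 4, Irf7 was at -0.30 (adjusted p = 0.0774) and Fasl at 0.96 (adjusted p = 0.0797), both uncalled.

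Other genes of the lists, taken by smallest p within their list, were not called by edgeR in HFD against ND. Apaf1, the scaffold of the apoptosome, averaged 34.6 CPM in SW, 40.8 in HFD and 34.3 in ND, with a log2 fold change of 0.25 ± 0.07 (edgeR adjusted p = 0.0623). Tnfaip3, which encodes the ubiquitin-editing enzyme A20 that restrains Ripk1 signalling, averaged 102 ± 19.3 CPM in SW, 216 ± 118 CPM in HFD and 98.2 ± 16.1 CPM in ND, with 1.14 ± 0.29 (adjusted p = 0.0634). Its HFD libraries spread from 91.2 to 368 CPM. Card6 averaged 126 CPM in SW, 126 in HFD and 113 in ND, with an edgeR adjusted p of 0.286 in HFD against ND. All 6 SW libraries lay above every ND library, but Card6 was not called in SW against ND either (edgeR adjusted p = 0.646). The share of all genes that separate in this way was not counted. Among other settings, DESeq2 called Apaf1 (adjusted p = 0.0301) and Tnfaip3 (adjusted p = 0.00758), and edgeR with the replicate sets as a factor called Apaf1 (adjusted p = 0.0164) and Spata2 (adjusted p = 0.0294). Without both HFD 1 and HFD 4, edgeR called Card6 (adjusted p = 0.0312) and Tnfaip3 (adjusted p = 0.0392). With 1 library left out, edgeR called Apaf1 without ND 2 (adjusted p = 0.04999), Tnfaip3 without HFD 1 (adjusted p = 0.016) and Irgm1 without HFD 5 (adjusted p = 0.0374). Spata2, Gbp9 and Irgm1 had log2 fold changes of -0.22, -0.14 and -0.21, with adjusted p-values of 0.117, 0.173 and 0.261.

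The substrates and a sensor of the Casp1 route were at low levels. Il18 averaged 0.699 CPM in SW, 0.609 in HFD and 0.287 in ND, Il1b 1.18, 2.36 and 1.34 CPM in the same order, and Mefv, which encodes the sensor pyrin, 1.247, 2.32 and 1.23 CPM. Their log2 fold changes in HFD against ND were 1.05, 0.79 and 0.89 with edgeR adjusted p-values of 0.427, 0.387 and 0.209. Without HFD 2 the Il1b value was 0.12, and without ND 4 the Il18 value was 1.58. The Il18 value was 0.03 with the myeloid covariate, 0.43 in replicates 3 to 6 alone and 2.13 in replicates 1 and 2 alone. In the same order of settings the Il1b value was 0.86, 0.20 and 1.40. The SEs of 0.60 for Il18, 0.42 for Il1b and 0.35 for Mefv were large beside a log2 change of 0.56, that of Casp1. Whether a change of that size could be detected in these genes was not tested.

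**Figure D5:**
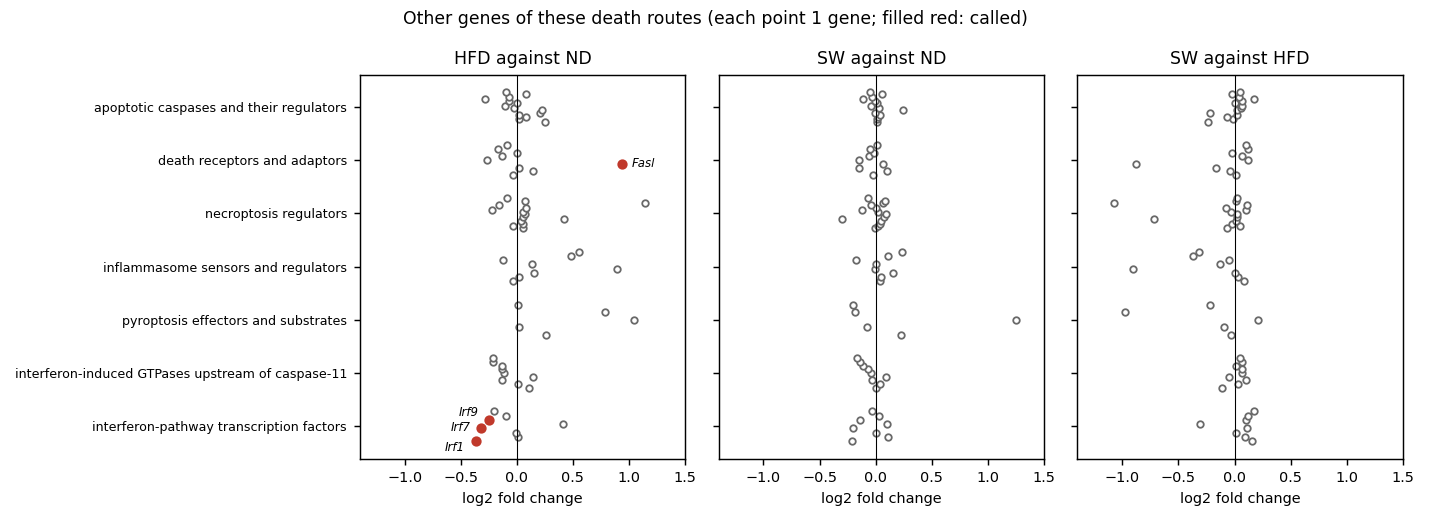
Log2 fold changes of the 67 tested genes in 7 lists of the same death routes, one row per list and one panel per comparison, with called genes filled and named. Fasl lies at 0.94 and Irf1, Irf7 and Irf9 between -0.37 and -0.25 in HFD against ND, and no point is filled in the other panels.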

How the data were processed

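Per the labels' protocols, messenger RNA was selected on poly-T beads and copied with random hexamers. Per the submitters' processing notes, reads passed through fastp, and the builds named are GRCm38 and mm10. Which aligner, counter, annotation and strand setting were used was not given in the sources used here. For each library the authors deposited raw counts per gene and, separately, FPKM; for 9534 well-counted genes the deposited FPKM equalled the count times a gene and a library factor within a relative departure of 2.5e-09. GENCODE M21, which may not be the authors' annotation release, gave symbols and coordinates; 52073 of 56748 IDs matched.

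Counts were fitted in edgeR 4.0.16 (R 4.3.3) with TMM scaling, filterByExpr, and a robust quasi-likelihood fit of all 18 libraries with diet as the factor; p-values were adjusted over all genes tested, and adjusted p-values come from this test except where the text names another tool. CPM is scaled by TMM library size. Alternatives used DESeq2 1.42.0, limma 3.58.1 on log2 FPKM, other filters and factors, and each library left out. Counting intervals do not cover PCR copies. The steps were tested on simulated data. The named genes were the members, their nearest genes, the called genes of each list and, where none was called, the 2 of smallest p in HFD against ND; some genes taken by this rule are not reported here. The members and lists were chosen with earlier results of these data known. CD4 T cells and B cells were not analysed here.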

Additional observations from a re-analysis of the deposited data

Results flagged for a closer look

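Among 66 groups of 6 libraries, each the levels of 1 named gene in 1 diet, 2 held a library far from the other 5; a test of this kind flags some groups by chance alone. Gsdmd stood at 127 CPM in HFD 4, against 104.7 CPM in the next HFD library and 93.1 CPM in the lowest. HFD 4 is the library that lay apart on the first principal component. Il1b stood at 6.83 CPM in HFD 2, against 1.83 CPM in the next HFD library and 1.15 CPM in the lowest.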

How the results depend on the processing

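No called value changed sign under any setting run. Of the members' fold changes under settings other than leaving out 1 library, 309 stayed within 1 SE or kept their call, 21 moved by more, and 6 lost it, all of Casp1. Covariates of erythroid markers and fits without both HFD 1 and HFD 4 were chosen after seeing the data. By the rule that every same-number pair must correlate above 0.1, the replicate numbers did not pair the samples: 7 of 18 pairs did, 6 of 6 for numbers 1 and 2 and 1 of 12 for numbers 3 to 6, and 5 of 18 libraries correlated best with their own number. Numbers are those of the sample titles; the deposited files carry other numbers. With the replicate block, calls numbered 598 in HFD against ND, 49 in SW against ND, 138 in SW against HFD and 469 for any diet, 7 of the wider genes were called in HFD against ND, and Casp1 was at 0.55 (adjusted p = 0.0335 in edgeR).

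Main counts were 222 in HFD against ND, 2 in SW against ND, 17 in SW against HFD and 123 for any diet. In the same order of comparisons, DESeq2 gave 471, 52, 110 and 427, the set of replicates as a factor 535, 22, 116 and 444, replicates 1 and 2 alone 5, 0, 2 and 5, the myeloid covariate 53, 0, 0 and 48, and the erythroid covariate 86, 15, 3 and 75. Without the filter on low counts, SW against ND gave 31, SW against HFD 53 and any diet 216. Limma on log2(FPKM + 0.1) gave 0 in SW against ND, 1 in SW against HFD and 77 for any diet, and with 1 added it gave 0 in SW against ND and 1 in SW against HFD. Fits of only the 2 diets compared gave 19 in SW against ND and 0 in SW against HFD, and DESeq2 size factors in edgeR 1 in SW against ND. Replicates 3 to 6 alone gave 5 in SW against ND. Without HFD 1 and HFD 4 there were 14 in SW against ND and 28 in SW against HFD.

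The number of members called in HFD against ND was 0 with limma on either log2 FPKM scale, in replicates 3 to 6 alone, in replicates 1 and 2 alone, with only the 2 diets compared and with the myeloid covariate. For any diet it was 1 without the filter, with DESeq2, with the replicate sets as a factor and with the erythroid covariate. It was 0 in SW against ND and SW against HFD under every setting run. The wider genes called in HFD against ND, 4 in edgeR, numbered 7 with DESeq2, 2 with limma on either scale, 0 in replicates 1 and 2 alone, 1 with the myeloid and 1 with the erythroid covariate. In SW against HFD, with 0 in edgeR, they numbered 2 with DESeq2 and 1 with the replicate sets as a factor. The cause of these moves was not tested, and subsets hold fewer libraries by construction.

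With single libraries left out, calls ran from 89 to 301 in HFD against ND (89 without ND 5), 0 to 16 in SW against ND (16 without HFD 1), 0 to 44 in SW against HFD (44 without HFD 1) and 62 to 220 for any diet. Members called ran from 0 to 1 in HFD against ND and were 0 elsewhere. Wider genes called in HFD against ND ran from 2 to 6, with 2 without ND 3, ND 4, ND 5, ND 6, HFD 2, HFD 4 or HFD 6. Among the 8 members, Casp4 had the fewest counts, 17 to 69 a library.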
